A study of Mus musculus with 9 samples.

Results

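The 10 genes described here are products of neutrophils and of the marrow cells that give rise to them, read in bulk RNA sequencing of mouse liver: S100a8, S100a9, Ngp, Camp, Ltf, Mpo, Padi4, Retnlg, Csf3r and Nlrp12. They are 10 of the 56748 genes of the deposited count table and were selected on their gene symbols, after S100a8, S100a9 and Nlrp12 had been seen to be higher in the livers of indirubin-treated mice. Their levels with indirubin are therefore a description and carry no test, whereas the contrast of colitis with water was not used to select them and keeps its test. The DSS libraries enter both contrasts.

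Livers came from 9 C57BL/6 mice that the study's methods describe as C57BL/6J, bought at 7 to 8 weeks of age, with 3 mice in each of 3 groups. The Control mice are labelled with water and received 200 µL of sterile water by mouth each day. The DSS mice had chronic colitis from 3 cycles of 1.8% dextran sulfate sodium, a polysaccharide that injures the colonic epithelium, in drinking water, each followed by a recovery week, and received the same daily water. The Indirubin mice had the same colitis and received indirubin, a poorly soluble plant compound of the herbal drug indigo naturalis, at 1 g/kg/day in the 200 µL. The submitters' design text introduces colitis without excepting the Control animals, so the state of these mice rests on their water label. The labels name separate samples and do not tie them to cages or processing days, so a p-value measures only the spread between these samples.

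Neutrophils are short-lived phagocytes that mature in the bone marrow and pack their antimicrobial proteins into granules in a fixed order. Primary granules, filled at the promyelocyte stage, carry myeloperoxidase and serine proteases, secondary granules carry lactoferrin, cathelicidin and neutrophilic granule protein, and the cytosol of mature cells is rich in the S100A8 and S100A9 heterodimer called calprotectin. In the liver these cells are few at rest and enter through the sinusoids during injury or infection. Because granule transcripts are made early and fall as the cell matures, a tissue can hold mature neutrophils with little granule mRNA.

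The libraries held 6514863 to 7944684 counts. Mitochondrial transcripts took 71.6% to 91.3% of them, which left 569044 to 2132208 counts on nuclear genes. Levels are given as raw counts, or as CPM, the counts scaled to a common library total, after TMM normalisation over all 9 libraries, as mean ± SD with n = 3 mice per group. A library with no count of a gene could still hold up to 3 counts' worth of it, which corresponded to 0.246 CPM in the library with the largest effective size (Indirubin-2) and to 0.731 CPM in the one with the smallest (Control-3). These floors cover counting error only, and no molecular identifiers are named in the sources used here. The liver identity of the tissue was plain in every library, with 7 hepatocyte markers summing to 6856 to 18138 CPM. The lowest sums were those of Indirubin-2 (6856 CPM) and Indirubin-3 (7833 CPM).

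Some of the genes are neighbours in the genome. S100a8 (ENSMUSG00000056054, chr3:90576285-90577342, plus strand) and S100a9 (ENSMUSG00000056071, chr3:90599939-90603028, minus strand) lie 22597 bases apart in the deposited coordinates, which follow build GRCm39. Camp (chr9:109676447-109678685), Ngp (ENSMUSG00000032484, chr9:110248815-110252080) and Ltf (ENSMUSG00000032496, chr9:110848339-110871835) share chromosome 9, with gaps of 570130 and 596259 bases between neighbours. Nlrp12 (ENSMUSG00000078817) is at chr7:3267458-3298370 on the minus strand, while Padi4 and Csf3r are both on chromosome 4, Mpo is on chromosome 11 and Retnlg on chromosome 16. The files count reads per gene, so the positions are those of whole genes.

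Promoters are shown for the calprotectin pair and for the other members whose Indirubin libraries all lay above the DSS libraries, since these carry the pattern described below. Each is the 250 bases before the RefSeq start on build GRCm38.p6, which is not the build of the counts, written 5′ to 3′ on the gene's own strand. Capitals mark matches, on either strand, to the C/EBP motif TTGCNNAA, the PU.1 site GAGGAAGT or the TATA box TATAAA. C/EBP proteins and PU.1 are the main transcription factors of granulocyte development.
S100a8 promoter, chr3:90668821-90669070, plus strand: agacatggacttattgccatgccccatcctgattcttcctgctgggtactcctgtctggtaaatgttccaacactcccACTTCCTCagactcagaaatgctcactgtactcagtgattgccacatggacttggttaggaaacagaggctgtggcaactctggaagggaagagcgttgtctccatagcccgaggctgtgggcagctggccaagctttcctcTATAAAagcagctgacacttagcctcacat
S100a9 promoter, chr3:90695722-90695971, minus strand: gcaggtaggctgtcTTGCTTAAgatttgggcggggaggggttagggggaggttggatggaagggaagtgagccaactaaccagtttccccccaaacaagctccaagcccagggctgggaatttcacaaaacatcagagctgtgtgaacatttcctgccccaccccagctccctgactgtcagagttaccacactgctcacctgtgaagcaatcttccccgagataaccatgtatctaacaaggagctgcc
Ngp promoter, chr9:110419558-110419807, plus strand: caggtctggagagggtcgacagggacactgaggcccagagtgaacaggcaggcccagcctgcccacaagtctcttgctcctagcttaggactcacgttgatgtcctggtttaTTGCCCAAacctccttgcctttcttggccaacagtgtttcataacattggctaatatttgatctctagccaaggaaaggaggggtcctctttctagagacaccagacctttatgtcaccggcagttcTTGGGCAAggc
Ltf promoter, chr9:111019042-111019291, plus strand: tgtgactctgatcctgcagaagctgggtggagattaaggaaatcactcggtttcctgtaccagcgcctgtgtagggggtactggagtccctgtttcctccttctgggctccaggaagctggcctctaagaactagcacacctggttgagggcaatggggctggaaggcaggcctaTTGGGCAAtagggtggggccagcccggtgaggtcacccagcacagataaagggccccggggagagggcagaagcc
Nlrp12 promoter, chr7:3249741-3249990, minus strand: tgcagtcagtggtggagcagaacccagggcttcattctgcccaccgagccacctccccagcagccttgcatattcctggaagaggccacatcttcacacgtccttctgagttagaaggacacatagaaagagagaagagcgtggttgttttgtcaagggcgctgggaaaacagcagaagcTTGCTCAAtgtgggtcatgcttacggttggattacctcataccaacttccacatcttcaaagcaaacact
Windows of 300 bases, which add 50 bases after the start, were found for 10 of the 10 members. The C/EBP letters were present in 5 of these windows, those of S100a9, Ngp, Ltf, Retnlg and Nlrp12, against 10.8% of 32817 promoters of that length. The PU.1 letters were found in S100a8 and Mpo (3.20% of all promoters). TATAAA was found in S100a8, where it began 30 bases before the start, in Padi4 and, from the start base itself, in S100a9 (13.6% of all promoters). These are matches of letters and were not read as bound sites.

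S100a8 encodes the smaller calprotectin subunit, which binds calcium and zinc and is a danger signal once released. Its counts were 4, 6 and 1 in the Control libraries, 64, 54 and 46 in the DSS libraries and 45, 1449 and 444 in the Indirubin libraries. Every DSS library was above every Control library, and Indirubin-2 and Indirubin-3 were far above all DSS libraries, while Indirubin-1 lay among them. In CPM the means were 0.693 ± 0.413, 7.12 ± 2.71 and 55.1 ± 57.1 (SD, n = 3 each). In the tested contrast, S100a8 was higher in DSS than in Control by 3.35 on the log2 scale (SE 0.80, unadjusted p = 9.4e-04, adjusted p = 0.0932, edgeR with Benjamini-Hochberg adjustment), so it did not pass the threshold of 0.05. It passed with DESeq2's Wald test (adjusted p = 0.0036) and without a filter on low counts in edgeR (adjusted p = 0.0417). A bulk library cannot tell more cells of a type from more RNA per cell, here or for the other genes.

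S100a9 encodes the other subunit and is usually made in the same cells. Its counts were 2, 9 and 12 with water, 77, 11 and 85 with DSS, and 83, 1292 and 483 with indirubin. The DSS-2 library, with 11 counts, overlapped the Control libraries, and every Indirubin library was above every DSS library once scaled, at 15.2, 106 and 41.7 CPM against 9.13, 1.95 and 7.77. The group means were 1.63 ± 1.27, 6.28 ± 3.81 and 54.3 ± 46.6 CPM. S100a9 differed between DSS and Control by 1.98 on the log2 scale (SE 0.85, unadjusted p = 0.0365, adjusted p = 0.613, edgeR), with overlap between the groups. The number of S100a8 counts for each S100a9 count was 0.831, 4.91 and 0.541 in the DSS libraries and 0.542, 1.12 and 0.919 in the Indirubin libraries, so DSS-2 was the colitis library in which the pair was least balanced.

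Nlrp12 encodes a cytosolic sensor of the NLR family that is expressed in myeloid cells and is known for restraining inflammatory signalling. Its counts were 30, 14 and 0 with water, 5, 11 and 24 with DSS, and 50, 194 and 192 with indirubin. The Control and DSS libraries overlapped, and every Indirubin library, Indirubin-1 included, was above all 6 of them. The means were 2.77 ± 2.93, 1.58 ± 0.863 and 13.9 ± 4.09 CPM. DSS differed from Control by -0.77 on the log2 scale (SE 1.29, unadjusted p = 0.562, edgeR), and the sign turned to 0.34 without Control-1. Indirubin-1, Indirubin-2 and Indirubin-3 held 22.0%, 38.2% and 39.8% of the summed Indirubin level of Nlrp12, a more even division than for S100a8, of which Indirubin-2 held 71.8% and Indirubin-3 held 23.2%.

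**Figure D1:**
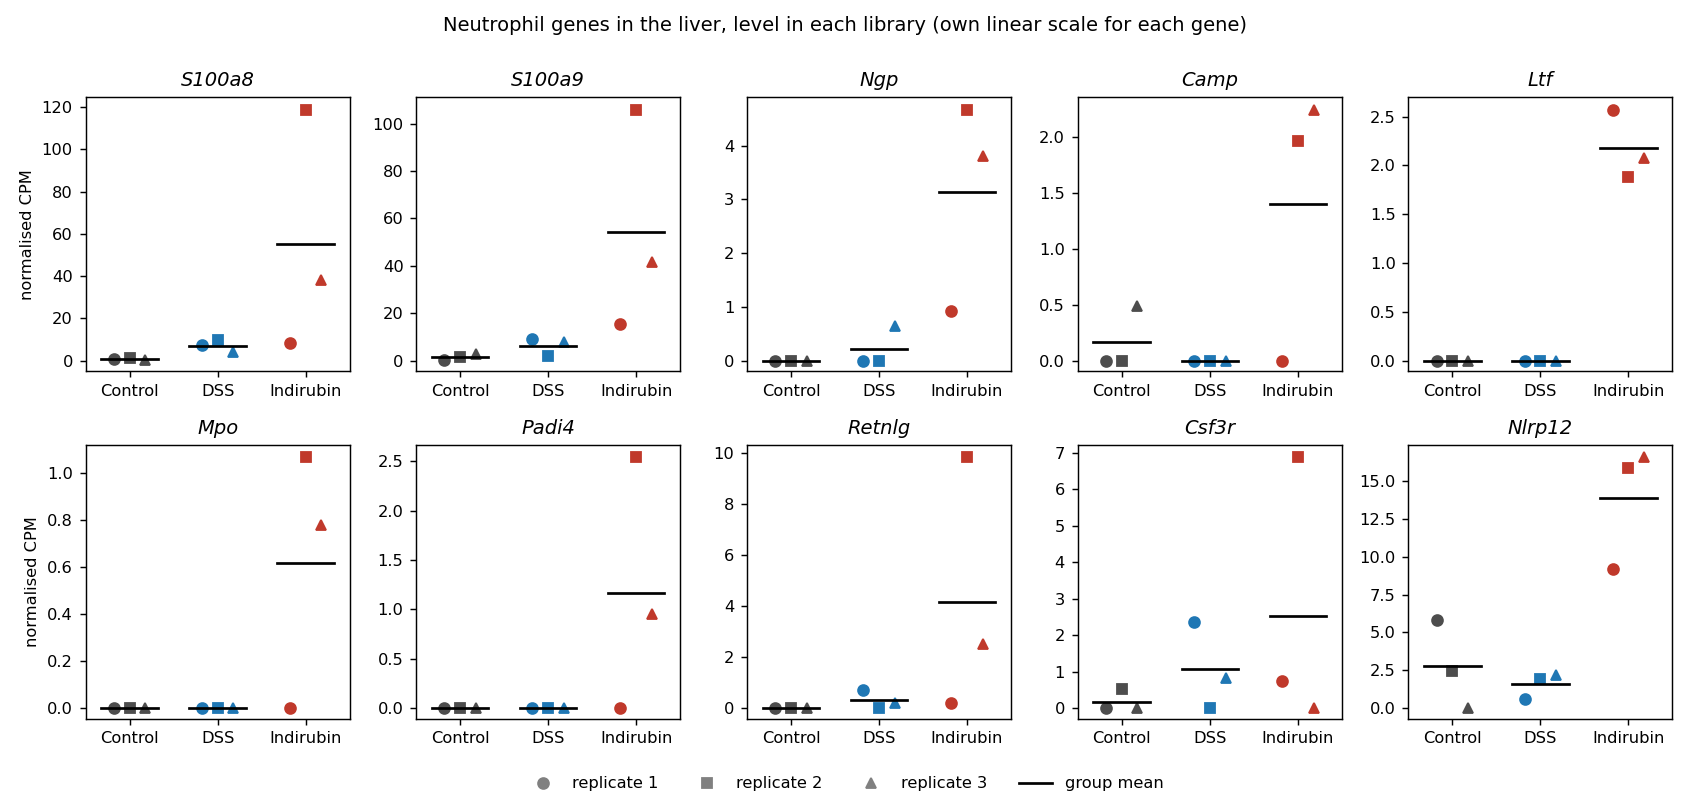
Normalised CPM of each of the 10 genes in each of the 9 libraries, on a linear scale of its own for each gene; symbols are replicates and bars are group means. Ltf is at 0 in all 6 Control and DSS libraries and between 1.88 and 2.57 CPM in the 3 Indirubin libraries, whereas Indirubin-2 alone sets the scale for S100a8, Retnlg and Csf3r.

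The 3 secondary granule genes among the members, Ltf, Ngp and Camp, had few or no counts in the Control and DSS livers. Ltf, which encodes the iron-binding lactoferrin, had 0 counts in all 6 Control and DSS libraries and 14, 23 and 24 counts in the Indirubin libraries. At 2.57, 1.88 and 2.07 CPM it was the member with the most even level across the Indirubin mice, and Indirubin-1 was the highest of the 3. Set against the floor of 3 counts per library, its mean of 2.18 ± 0.354 CPM was at least 5.62-fold higher than in DSS and at least 3.54-fold higher than in Control. DSS-3, the deepest library on nuclear genes, also had no count of it.

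Ngp encodes neutrophilic granule protein, a cystatin-like relative of the cathelicidins. It had 0 counts in each Control library, 0, 0 and 7 in the DSS libraries and 5, 57 and 44 in the Indirubin libraries. Scaled, the Indirubin libraries were at 0.918, 4.67 and 3.80 CPM and DSS-3 at 0.640 CPM, so the groups were separated only narrowly by Indirubin-1, and they overlapped when counts were divided by total counts alone. Camp, the cathelicidin precursor, had 0, 0 and 2 counts with water, none with DSS, and 0, 24 and 26 with indirubin. Indirubin-1 overlapped the other groups, and the mean was at least 3.63-fold above the DSS floor.

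Counts of Mpo and Padi4 came from Indirubin-2 and Indirubin-3 alone. Mpo, the myeloperoxidase that makes hypochlorous acid, had no count in any Control or DSS library and 0, 13 and 9 counts with indirubin, a mean at least 1.59-fold above the DSS floor. Padi4, the enzyme that citrullinates histones during the release of extracellular traps, had no count in the same 6 libraries and 0, 31 and 11 with indirubin, at least 3.01-fold above that floor. Neither gene separated the groups, because Indirubin-1 had no count of either.

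Retnlg and Csf3r mark later stages of the lineage. Retnlg, a resistin-like secreted protein of mature neutrophils, had 0 counts in each Control library, 6, 0 and 2 in the DSS libraries and 1, 120 and 29 in the Indirubin libraries. Its mean was at least 6.80-fold above the Control floor and rested on Indirubin-2, which held 78.5% of the Indirubin level. The 1 count in Indirubin-1, 0.184 CPM, was within the floor of the Control libraries and below DSS-1, so Retnlg did not separate Indirubin from either group beyond the floor. Csf3r, the receptor of granulocyte colony-stimulating factor, had 0, 3 and 0 counts with water, 20, 0 and 9 with DSS and 4, 84 and 0 with indirubin. Indirubin-2 held 90.4% of its Indirubin level, and Indirubin-3, the library with the second highest S100a8, had none. DSS-1 held 20 of its 29 DSS counts, and the DSS and Control libraries overlapped.

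Counted over the 10 genes, the mean was higher with indirubin than with DSS in 10, and in 4 (S100a9, Ngp, Ltf and Nlrp12) every Indirubin library lay above every DSS library. The same separation was seen for 7.78% of the 23034 genes with a count in either group and for 10.5% of the 9117 genes that passed the filter. Since this contrast selected the genes, nothing is read from the count. Against Control, 6 of the 10 were separated in rank (the same 4, S100a8 and Retnlg, the last only by the 1 count within the floor), beside 8.64% of 22767 genes with a count and 12.2% of 8059 filtered genes. Both contrasts share the Indirubin libraries. Only 4 members passed the filter on low counts against DSS (S100a8, S100a9, Ltf and Nlrp12), and the other 6 were too sparse for a fit.

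For the 3 with a count in each group, the fitted differences from DSS were 2.96 for S100a8 (SE 0.76), 3.09 for S100a9 (SE 0.71) and 3.13 for Nlrp12 (SE 0.59) on the log2 scale. Those from Control were 6.27, 5.12 and 2.33. With 1 library left out, the values against Control were 5.03 to 6.66, 4.18 to 5.75 and 1.75 to 3.39. The lowest values of S100a8 and S100a9 came without Indirubin-2 and their highest without Control-2 and Control-3, while for Nlrp12 the lowest came without Control-3 and the highest without Control-1. The 3 genes thus stood close together against DSS and apart against Control, where Nlrp12 had counts in Control-1 and Control-2. Without Indirubin-2 the difference from DSS was 1.73 for S100a8 and 2.16 for S100a9, compared with 3.02 for Nlrp12, so a large part of the calprotectin difference rested on 1 library and that of Nlrp12 did not. Without Indirubin-1, 9 of the 10 genes were separated from DSS, Csf3r being the exception, beside 16.6% of the 21930 genes with a count in the 5 libraries left. This contrast selected the genes, so nothing is read from that count either.

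**Figure D2:**
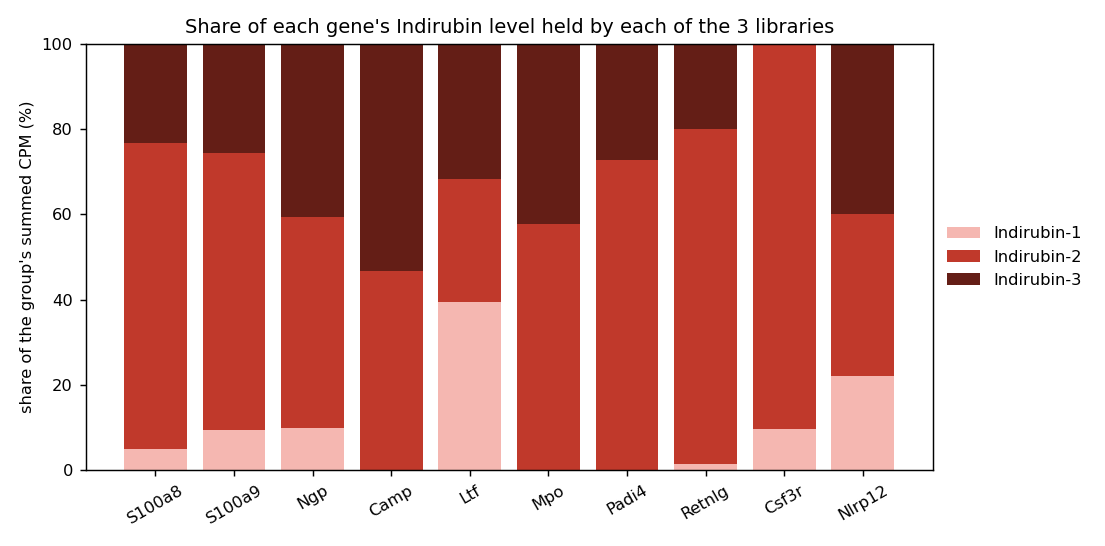
Share of each gene's summed Indirubin CPM held by each of the 3 Indirubin libraries, in percent, as stacked bars. Indirubin-2 holds 71.8% of S100a8, 78.5% of Retnlg and 90.4% of Csf3r, while Ltf is divided into 39.4%, 28.9% and 31.8% and Indirubin-1 holds none of Camp, Mpo or Padi4.

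Each library could also be read across the genes. At least 1 count was found for 3, 4 and 3 of the 10 genes in the Control libraries, for 5, 3 and 6 in the DSS libraries and for 7, 10 and 9 in the Indirubin libraries. The summed level was 3.65 to 7.004 CPM with water, 13.5 to 20.4 CPM with DSS, and 37.1, 269 and 109 CPM with indirubin. Without S100a8, S100a9 and Nlrp12, the other 7 genes summed to 4.41, 28.8 and 12.4 CPM in the Indirubin libraries, compared with 3.08, 0 and 1.65 CPM in the DSS libraries and 0, 0.528 and 0.487 CPM in the Control libraries. Indirubin-1 was the shallowest of the Indirubin libraries on nuclear genes, with 701804 counts against 1910420 and 1771035. DSS-3, with 2132208, was deeper than any of them and had no count of Camp, Ltf, Mpo or Padi4.

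Levels of different genes were set side by side per length of transcript, in the deposited FPKM (fragments scaled by gene length and library size). In the Indirubin livers S100a9 (97.4 ± 82.1 FPKM) and S100a8 (74.2 ± 76.0) led and did not differ beyond their spread. Retnlg followed at 6.56 ± 7.86, then Ngp at 2.41 ± 1.48, Nlrp12 at 1.74 ± 0.482 and Camp at 1.73 ± 1.52. Each of these 4 means differed from the next by less than the larger SD of the pair, and that of Retnlg rested on Indirubin-2. In Indirubin-1 the order differed, with Nlrp12 at 1.19 FPKM, Ngp and Ltf both at 0.73 FPKM, Retnlg at 0.302 FPKM and Camp at 0. Csf3r (0.656 ± 0.969), Ltf (0.600 ± 0.113), Padi4 (0.224 ± 0.246) and Mpo (0.168 ± 0.15) were lowest. In the DSS livers the calprotectin pair was again first, at 11.2 ± 6.66 and 9.83 ± 4.23 FPKM, and no other member had a mean above 0.470 FPKM.

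The contrast of DSS with Control gives the members their test. Of the 10 genes, 3 passed the filter and 0 had an adjusted p under 0.05 in edgeR, where 0.214% of the 7482 tested genes were called higher and 0.495% lower (16 and 37 genes, or 14 and 5 with library size as the only scaling). Before adjustment, S100a8 and S100a9 had p below 0.05 and were higher, as were 3.48% of the tested genes, while 4.05% were lower, and DESeq2's Wald test called S100a8. Those shares are 260 and 303 genes, which became 845 and 71 with library size as the only scaling. S100a8 was also the single member with every DSS library above every Control library, a separation seen for 3.74% of the 18484 genes with a count and for 7.10% of the tested genes. With 3 mice against 3, an exact two-sided permutation test of a single gene cannot give a p below 0.10. Without DSS-2, 4 of the 10 genes were separated in that direction, beside 10.4% of 18314 genes with a count in the libraries left. These were S100a8, S100a9, Csf3r and, by 2 counts in DSS-3 that lie within the floor, Retnlg.

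Other granule genes, which were not used for the selection, were called in the same contrast. Prtn3, the primary granule protease proteinase 3, had 3, 2 and 0 counts with water and 52, 42 and 95 with DSS. It rose by 4.48 on the log2 scale (SE 0.90, adjusted p = 0.0395, edgeR), with no overlap between the groups, and had 0, 80 and 20 counts with indirubin. Lcn2, the siderophore-binding lipocalin of secondary granules, had 28, 0 and 0 counts with water, 139, 1192 and 2633 with DSS and 18, 5356 and 9305 with indirubin, and rose by 6.403 with DSS (SE 1.18, adjusted p = 0.0239). Hp, haptoglobin, rose by 2.60 (SE 0.50, adjusted p = 0.0321). Of the 11 secondary and tertiary granule genes on the list, 3 were tested, and the other besides Lcn2 and Hp, Lyz2, was not called (0.02, SE 0.34, unadjusted p = 0.954, edgeR). Leaving out any 1 of the 6 libraries ended the call of Prtn3 (adjusted p = 0.0714 to 0.228, log2 fold change 3.95 to 5.13, edgeR). Hp kept its call only without DSS-1 (adjusted p = 0.00168, and 0.0787 to 0.326 without any 1 of the others). Lcn2 kept it without DSS-1 (0.00379) or DSS-2 (0.0494) and lost it without Control-2 (0.143), Control-3 (0.18) or DSS-3 (0.0923), and without Control-1 its Control libraries were all at 0. Lcn2 also lost its call with DESeq2's Wald test (adjusted p = 0.127) and with library size as the only scaling (adjusted p = 0.0758, edgeR), and Prtn3, Lcn2 and Hp lost theirs with all 9 libraries in one fit (adjusted p = 0.107 to 0.231). Lcn2 and Hp are also acute-phase genes of hepatocytes, so in whole liver they do not mark neutrophils alone. Elane, Ctsg, Ms4a3 and Fcnb, the other primary granule genes, had 0 to 7 counts in each Control and DSS library and were not tested.

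With indirubin these granule genes gave no call. Against DSS, Prtn3 differed by -1.38 on the log2 scale (SE 0.93, unadjusted p = 0.163), Lcn2 by 1.41 (SE 1.21, unadjusted p = 0.265) and Hp by -0.25 (SE 0.81, unadjusted p = 0.762), each with overlap between the groups (edgeR). Mmp8, the neutrophil collagenase of secondary granules, had no count in the 6 Control and DSS libraries and 9, 18 and 24 counts with indirubin. Chil3, a chitinase-like protein of neutrophils and macrophages, had none and 3, 82 and 33. Cd177, a neutrophil surface protein, had 0, 0 and 5 counts with DSS and 12, 28 and 7 with indirubin. These sparse genes did not pass the filter and have no test.

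Of the 9117 genes tested between Indirubin and DSS, 0% were called higher and 0% lower at an adjusted p under 0.05 by edgeR. With unadjusted p below 0.05 there were 406 higher genes (4.45%) and 294 lower ones (3.22%), or 407 and 103 with library size as the only scaling, and DESeq2's Wald test called 80 genes at its adjusted threshold. The other neutrophil lists are therefore described by counts, beside a median of 0.15 for all tested genes on the log2 scale. Of 20 mature neutrophil surface receptors, 7 were tested, all 7 were higher with indirubin, 2 had an unadjusted p under 0.05 and the median was 1.62. Between DSS and Control only 3 of the 20 passed the filter, so part of the 7 entered through their Indirubin counts and their direction is no support. Fcgr4, an activating Fc receptor of neutrophils and monocytes, was one of those 2 (log2 fold change 1.72, SE 0.62, unadjusted p = 0.0160).

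Of the 20 surface genes, Cxcr2 and Ly6g, which define mature neutrophils, were at or near 0. Cxcr2, the receptor that draws these cells to CXC chemokines, had no count in any of the 9 libraries, and Ly6g, the usual antibody target in mice, had 6 counts in Indirubin-2 and none elsewhere. The summed level of the 20 receptors was 8.04 to 15.7 CPM with water, 13.6 to 31.4 with DSS and 34.5 to 71.9 with indirubin, and much of it came from Fcgr3, Fcgr4 and Pirb, which macrophages and monocytes express too. Of the 20 genes, 12 to 17 had a count in an Indirubin library, 6 to 11 in a DSS library and 5 to 10 in a Control library. Cxcr2 and Ly6g are 2 genes of that list, and whether mature neutrophils were present was not tested.

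The NADPH oxidase, which makes superoxide in phagocytes, was measured in full. Against DSS, 5 of its 6 subunit genes were higher and 1 lower with indirubin, 0 passed at an unadjusted p under 0.05, and the median was 0.56. With library size as the only scaling all 6 were higher. Cybb, the catalytic membrane subunit, had 20, 37 and 43 counts with DSS and 29, 107 and 70 with indirubin, with overlap (log2 fold change 0.66, SE 0.57, unadjusted p = 0.270). The summed level of the 6 genes was 24.5 to 37.4 CPM with DSS and 44.5 to 52.0 CPM with indirubin, without overlap. In DSS against Control, 5 were higher and 1 lower, and again 0 passed, or 2 with library size as the only scaling. That scaling gave 845 of the 7482 tested genes an unadjusted p under 0.05 on the higher side (edgeR). It moved the median of all genes to 0.70, so nothing is read from the 2.

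**Figure D3:**
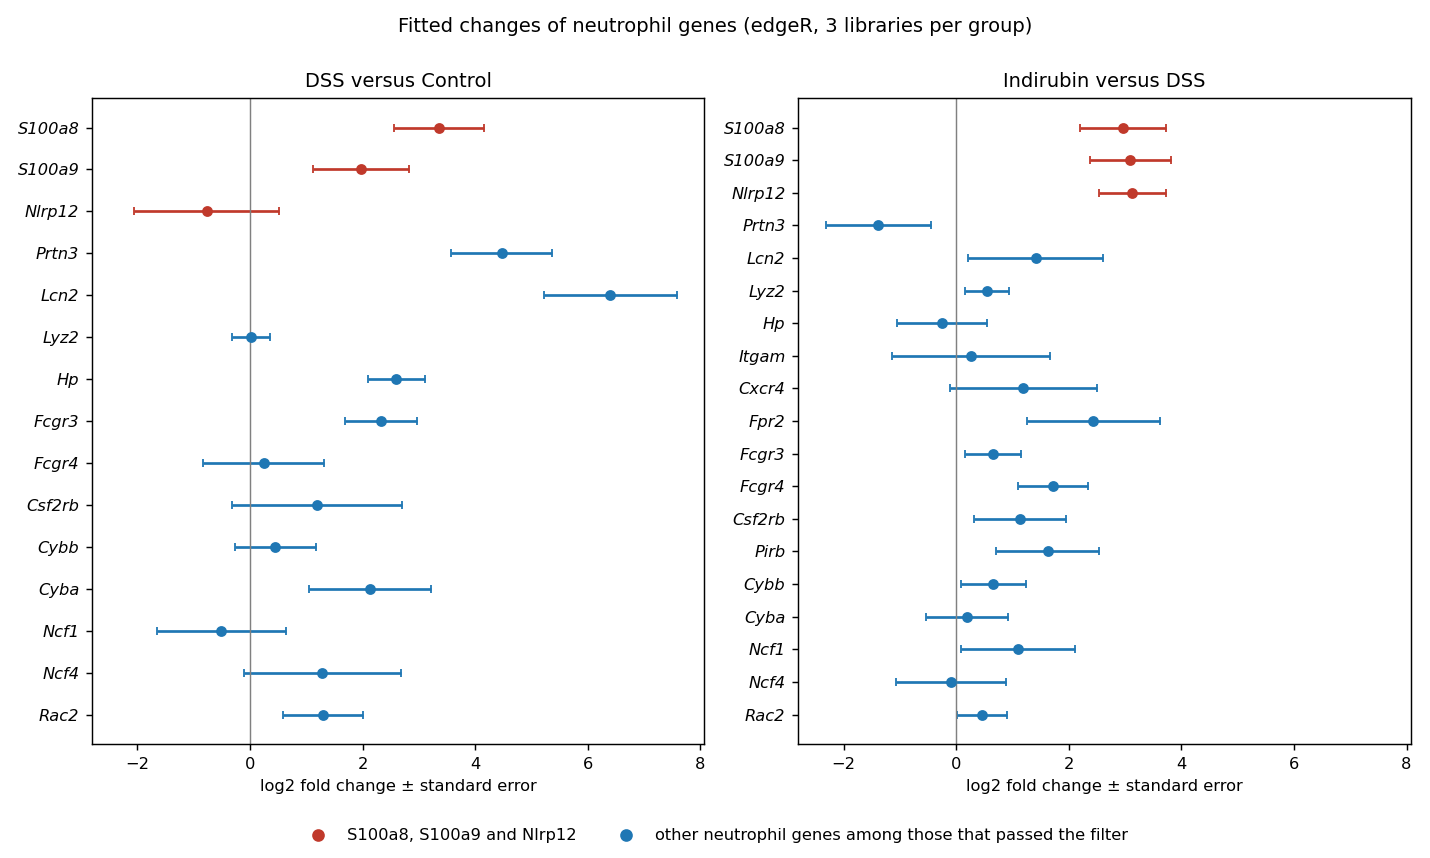
Log2 fold changes with standard errors from edgeR for S100a8, S100a9 and Nlrp12 and for other granule, receptor and NADPH oxidase genes among those that passed the filter, in DSS versus Control and in Indirubin versus DSS (3 libraries per group). Prtn3, Lcn2 and Hp are the called genes on the side of DSS versus Control, at 4.48, 6.403 and 2.60; with indirubin the values of S100a8, S100a9 and Nlrp12 are a description.

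Signals that call neutrophils were sparse. Of 14 attractants and granulopoietic cytokines, Csf3, Cxcl3, Cxcl5, Csf2, Il17a and Ccl3 had no count in any library. Cxcl1, a ligand of CXCR2, had none with water, 8, 4 and 34 counts with DSS and 0, 327 and 29 with indirubin, and thus was highest in Indirubin-2, the library with the highest S100a8. Of the list, 5 were tested against DSS, 3 were higher and 2 lower (4 and 1 with library size as the only scaling), 0 had an unadjusted p under 0.05 and the median was 0.30. Without Cxcl1, which passed the filter only in this contrast, 2 were higher and 2 lower and the median was -0.12. Il1a and Csf1 were the lower ones, at -0.57 and -0.55. Of 9 leukocyte adhesion genes, 6 were tested, 4 were higher and 1 passed at an unadjusted p under 0.05 with indirubin. Between DSS and Control 5 of these passed the filter, of which 3 were higher with indirubin. The 1 adhesion gene that passed with indirubin against DSS was Itgb2, the shared chain of the leukocyte integrins (2.00, SE 0.84, unadjusted p = 0.0347, edgeR).

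Of 7 granulocyte transcription factors, 5 were tested against DSS, 4 were higher (5 with library size as the only scaling), 1 passed at an unadjusted p under 0.05 and the median was 1.42. Of the 4 that also passed the filter between DSS and Control, 3 were higher and 1 lower, with a median of 1.31. Cebpb, which drives granulopoiesis under stress and acute-phase genes in hepatocytes, was at 7.14 ± 5.30 CPM with DSS and 19.8 ± 2.20 CPM with indirubin (1.45, SE 0.62, unadjusted p = 0.0372). Spi1, which encodes PU.1, gave 1.18 (SE 0.56, unadjusted p = 0.0563). Cebpe, needed for secondary granules, had 12, 0 and 0 counts with DSS and 0, 4 and 0 with indirubin, and Gfi1 had 5 counts in Indirubin-3 alone.

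Among relatives of single members, Padi2, another histone-citrullinating enzyme, had 0, 0 and 5 counts with DSS and 13, 52 and 18 with indirubin, whereas Padi1 and Padi3 had none. Of the list of deiminases and trap-release genes, Dnase1l3, a DNA-degrading enzyme (0.96, SE 0.64, unadjusted p = 0.160), and Gsdmd, the pore-forming gasdermin D (-0.28, SE 0.63, unadjusted p = 0.665), were the others tested against DSS in edgeR. The list of 6 summed to 17.8 to 26.5 CPM with water, 6.73 to 14.7 CPM with DSS and 13.9 to 26.8 CPM with indirubin, so the Indirubin libraries overlapped both other groups. Cd33, listed as a receptor of S100A9, had 0, 0 and 4 counts with DSS and 11, 31 and 32 with indirubin. Bsg, the other receptor of the 4 on that list to be tested, differed between Indirubin and DSS by -0.43 on the log2 scale (SE 0.50, unadjusted p = 0.416, edgeR). Padi2 and Cd33 passed the filter through the Indirubin libraries and no test is given for them. Tlr4 and Ager, the better known calprotectin receptors, had at most 23 and 8 counts in any library. Of the 13 other S100 genes, 6 were tested, 2 were higher and 4 lower with indirubin and the median was -0.10, against 5 and 1 and a median of 0.29 with library size as the only scaling, which also moved the median of all genes to 0.43. S100a6, which also passed the filter through the Indirubin libraries, had 11, 13 and 7 counts with DSS and 5, 117 and 113 with indirubin, and Indirubin-1 was the low library of its group.

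The other NLR and inflammasome genes are described on their own. Nlrp12 was selected for its rise with indirubin, so its size is not set against theirs. Of 19, 9 were tested against DSS, 6 were higher and 3 lower, 0 had an unadjusted p under 0.05, and the median was 0.12. Of the 5 that also passed the filter between DSS and Control, 3 were higher and 2 lower, with a median of 0.10. Nlrp3, the sensor of membrane damage, had 0 counts in each DSS library and 3, 7 and 0 with indirubin. Nlrp6, an intestinal and hepatic NLR, had 92, 177 and 104 counts with water, 15, 63 and 21 with DSS and 35, 43 and 70 with indirubin. In DSS against Control it differed by -2.31 on the log2 scale (SE 0.64, unadjusted p = 0.00291, adjusted p = 0.194, edgeR), with no overlap. The same separation on the lower side was seen for 8.54% of the 7482 tested genes.

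By likeness over the 9 libraries, in the Pearson correlation of log2(CPM + 1) among 9709 genes, S100a9 was nearest to Eef2 (r = 0.97), Sin3b, Tlk1, Adora1 and the lncRNA Gm43305. None of these is a neutrophil gene by its known role, and Eef2 is the translation elongation factor of every cell. Nlrp12 was nearest to Ppp1r2 (r = 0.95), Phactr2, Smim13, Galnt15 and Fbxo6. The 9 points share library depth and group, so these values are a description.

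Markers of other cell types were high in the same libraries. Pancreatic acinar genes, which liver does not normally express, summed to 7.05 to 17.0 CPM for 9 genes with water, to 0 to 3.08 CPM with DSS and to 10.3, 663 and 888 CPM in Indirubin-1, Indirubin-2 and Indirubin-3. Indirubin-1 was thus above the DSS range and within the Control range. Of the 9, Cela2a and Cpa1 were at 0 in all other libraries and Ctrb1 reached 1959 and 2817 counts. Indirubin-3 was the highest library for the acinar genes, as it was for Nlrp12 (16.6 against 15.9 CPM in Indirubin-2) and Camp (2.25 against 1.97 CPM), whereas Indirubin-2 was highest for S100a8 and S100a9. In Indirubin-1, where 4 of the 9 acinar genes had a count, Nlrp12 was at 9.18 CPM, Ltf at 2.57 CPM and S100a9 at 15.2 CPM, above every DSS library. The part of the acinar signal in the other values was not tested.

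Blood and macrophage markers were read in the same way. Erythroid markers, 6 genes led by the globins, summed to 110 to 267 CPM with water, to 147 to 256 CPM with DSS and to 167, 668 and 647 CPM in the 3 Indirubin libraries, so Indirubin-1 was within the DSS range. Monocyte markers, 5 genes, summed to 12.5 to 21.7 CPM with water, 13.4 to 14.8 CPM with DSS and 16.9 to 50.2 with indirubin, nearly all of it Plac8 (1.504, SE 0.45, unadjusted p = 0.00562), and the defining Ly6c2 had 0, 41 and 0 counts with indirubin. Macrophage and Kupffer cell markers, 11 genes with counts in every library, summed to 155 to 176 CPM with DSS and 175 to 276 CPM with indirubin (114 to 195 with water). Against DSS, 7 of the 11 were higher and 4 lower with indirubin (10 and 1 with library size as the only scaling), and the median was 0.79. C1qb, C1qc, Vsig4 and Marco had an unadjusted p under 0.05, led by C1qb, a complement subunit made by macrophages (1.47, SE 0.44, unadjusted p = 0.00579, edgeR). All 4 were higher, as were 4.45% of the 9117 tested genes at that threshold, while 3.22% were lower. After adjustment 0 of the 11 passed. In DSS against Control, 6 of the 11 were higher and 5 lower (10 and 1 with library size as the only scaling), with a median of 0.03. Marco, a scavenger receptor of these cells, rose there by 2.43 (SE 0.50, adjusted p = 0.0443, edgeR). With 1 library left out, the call of Marco held only where that was DSS-1 (adjusted p = 0.0307, and 0.155 to 0.314 otherwise). It was also lost with all 9 libraries in one fit (adjusted p = 0.176). Eosinophil, basophil and mast cell markers stayed at or under 1.23 CPM in sum, with Prg2, Epx and Ms4a2 at 0 in all libraries. T and NK cell markers summed to at most 2.95 CPM, B and plasma cell markers to at most 13.3 CPM, and platelet markers to at most 17.2 CPM. Sinusoidal endothelial markers summed to 24.6 to 56.2 CPM with water, 18.3 to 31.6 with DSS and 39.7 to 50.9 with indirubin, so the Indirubin libraries were above DSS and within the Control range. Stellate cell markers summed to 125 to 199, 44.7 to 63.6 and 73.6 to 107 CPM, with the Indirubin libraries above DSS and below Control. Of the 7 hepatocyte markers, 2 were higher and 5 lower with indirubin than with DSS, and 2 of the lower ones had an unadjusted p under 0.05, or 0 when scaled by library size alone, with a median of -0.51. The part of these cell types in the levels of the 10 genes was not tested.

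**Figure D4:**
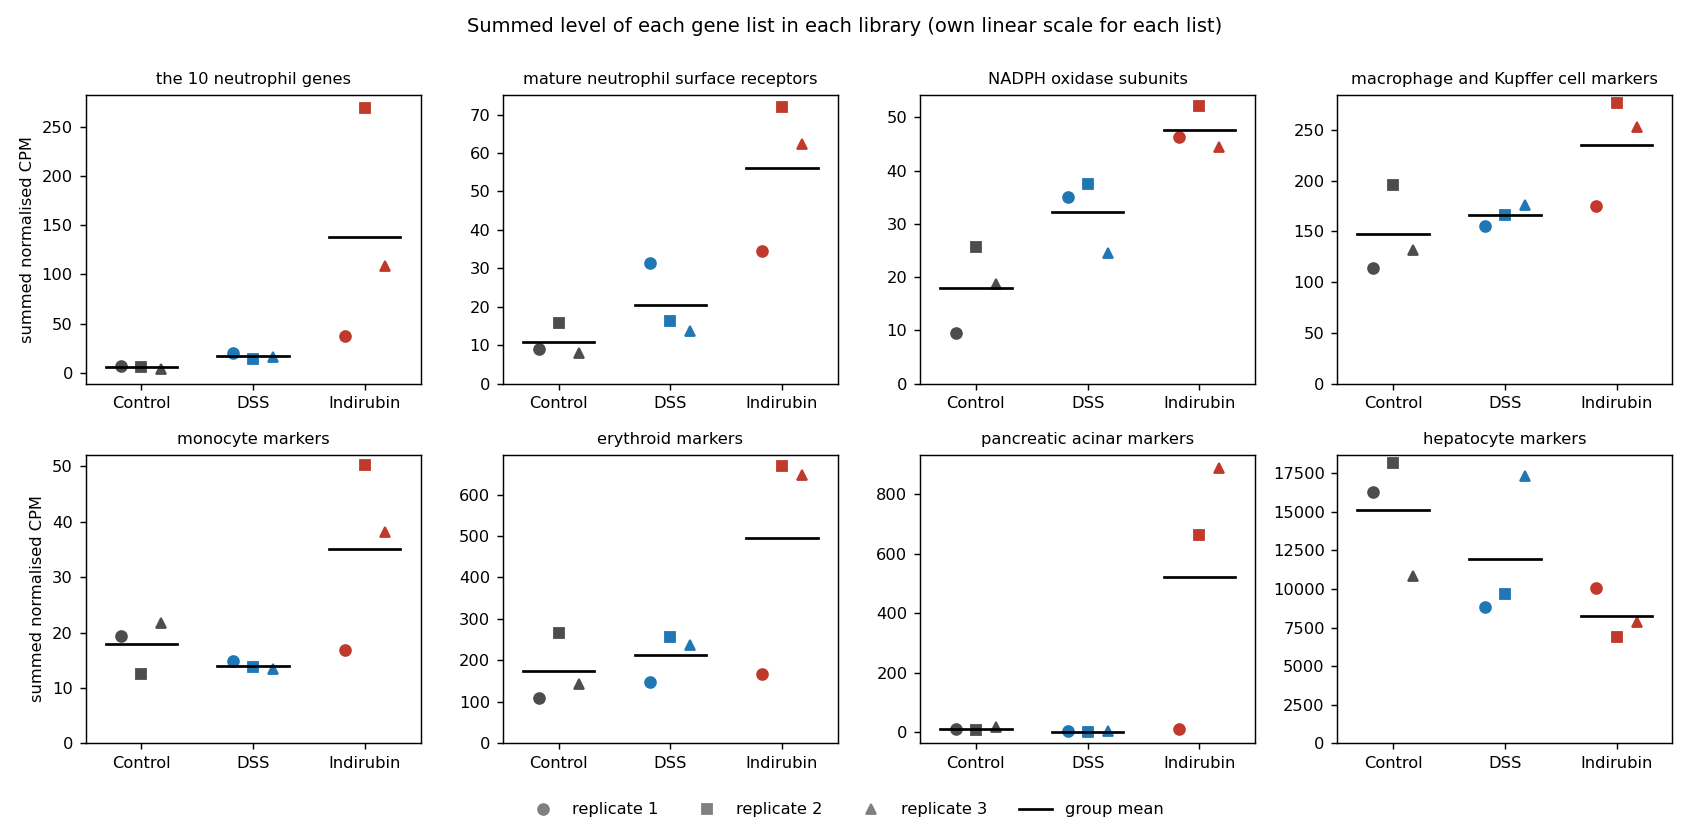
Summed normalised CPM in each of the 9 libraries for the 10 neutrophil genes and for 7 lists of marker genes, on a linear scale of its own for each list, with bars at group means. Indirubin-2 and Indirubin-3 stand above the DSS libraries for the 10 genes and for every list but the hepatocyte one, where they are below. Indirubin-1, at 37.1 CPM for the 10 genes, is above the DSS range there. It is also above it for the receptor, NADPH oxidase, monocyte and acinar lists, but not for the erythroid, macrophage and hepatocyte lists.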

How the data were processed

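RNA from mouse liver was prepared by the authors with a Qiagen kit, made into libraries from 400 ng and sequenced on a DNBSEQ platform. The authors deposited whole-number counts per gene, without normalization, and FPKM values made from them. Build GRCm39 is given in the submitters' processing notes. Aligner, counter, annotation and strand setting are not given in the sources used here. The deposited columns of fold changes and p-values between groups and 3 lists of group-specific genes were not used.

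The 10 genes and all lists were chosen with earlier results of these data known. The named genes were the 10, up to 2 tested genes with the smallest unadjusted p each way in every other list, marker genes by level, and the 5 most correlated with S100a9 and with Nlrp12. Other list genes in the text, most of them too sparse for a test, were named after their counts were seen. Some genes of these lists that the rule would name are not reported here, though they count in the totals of their lists.

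The test was edgeR 4.0.16 under R 4.3.3 (TMM; filterByExpr, min.count 10, min.total.count 15; glmQLFit; glmQLFTest) on the 6 libraries of each comparison, with Benjamini-Hochberg adjustment over all genes tested. The standard error is the log2 fold change divided by the square root of F. DESeq2 1.42.0 was an alternative. The scripts were tested on simulated data. Libraries with the same number did not deviate together (correlations of -0.03 to 0.04), so groups were taken as unpaired. Promoter windows came from RefSeq on GRCm38.p6.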

Additional observations from a re-analysis of the deposited data

How the results depend on the processing

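Of 119 refits of a log2 fold change of S100a8, S100a9 or Nlrp12, 113 stayed on their side of the threshold or within 1 SD. The threshold was used for DSS against Control, and the SD of the libraries within groups for the Indirubin contrasts. That SD takes in Indirubin-2, so S100a8 against DSS, at 2.96 with this library and 1.73 without it, counts as unmoved. Beyond 1 SD moved 1 refit of Nlrp12 against DSS and 1 each of S100a9 and Nlrp12 against Control. S100a8 in DSS against Control passed in 2 (3.39 with DESeq2's Wald test, 3.33 without a filter). Nlrp12 there turned sign without Control-1 (0.34). Its values ranged over -1.38 to 0.34 across the left-out libraries.

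The 53 calls in DSS against Control (16 higher, 37 lower) became 19 with library size alone (14 higher, 5 lower), 143 with DESeq2's Wald test, 125 without a filter, 84 where each library needed 10 counts and 11 with all 9 libraries in one fit. Leaving out 1 library gave 12 (Control-2) to 64 (DSS-1). For Indirubin against DSS, 0 calls became 2, 80, 156, 2 and 4 in the same order, and 0 to 134, the last without Indirubin-1. For Indirubin against Control, 19 became 266, 316, 379, 72 and 56, and 1 to 465, the last without Indirubin-1. With the replicate number as a block, the samples sharing only a number, the calls were 30, 3 and 49. The calls of Prtn3, Lcn2, Hp and Marco were lost under the block (adjusted p = 0.106, 0.0946, 0.163 and 0.123). The causes were not tested. Library size alone moved the median log2 fold change of all genes from 0.01 to 0.70, from 0.15 to 0.43 and from 0.13 to 1.10 in the 3 comparisons.

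The number of the 10 genes separated from DSS by indirubin was 4 to 9 when 1 library was left out, beside 9.74% to 16.6% of all genes with a count, and 3 with counts divided by total counts. The number separated from Control by DSS was 1 to 4, beside 5.66% to 10.4% of all genes. Leaving out Indirubin-2 and Indirubin-3 together, added after the data were seen together with the division by total counts, kept 4 by construction. Most members had under 100 counts in a library, and sequencing depth on nuclear genes limits what their zeros show.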
